A study of Mus musculus with 2 samples.

Results

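Mir378a is the mouse gene for the microRNA (miRNA) miR-378a, and it is 1 of the 2202 annotated miRNA genes counted in these libraries. It was chosen by its own-strand read count in the library labelled replicate 2, where it is high, so its level, rank and ratio between the libraries are given as a description, with no test. The study made 2 miRNA sequencing libraries of 1 group, called replicate 2 and replicate 1 here after their labels. Both are labelled as left cerebral cortex of B6CASTF1/J males, 4 days old, a strain that is the F1 cross of C57BL/6J and CAST/EiJ. The labels name no treatment and no mutation. The labels give the males different numbers but a single donor identifier, so the spread between libraries may not be a spread between animals. The marker levels of replicate 2 go against its cortex label. Neuron-enriched miRNA genes took 0.132% of its counts, against 4.28% in replicate 1, and muscle miRNA genes took 15.7%, against 0.00737% in replicate 1. Nearly all of that muscle share was Mir206, with 559242 of the 562170 muscle counts in replicate 2. Each ratio, and the mean over both libraries, therefore holds for the libraries as labelled. RNA below 30 nt was kept, and each table holds read counts per hairpin gene, so the arms of a hairpin are not separated and the host messenger RNA is not analysed here.

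A miRNA is cut from a hairpin and guides Argonaute proteins to messenger RNAs that pair with its seed, bases 2 to 8 of the mature strand. Mir378a lies within Ppargc1b, which encodes PGC-1beta, a transcriptional coactivator of mitochondrial and fatty acid oxidation genes. In mice miR-378a has been studied in skeletal muscle differentiation, heart, liver and brown fat, and mice without it resist obesity on a rich diet. Its described mouse targets include carnitine acetyltransferase and the Mediator subunit Med13.

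3 other annotated genes carry the name Mir378. Their mature strands are shown because they share runs of 15 to 20 nt with the Mir378a hairpin. They are not the only sequences with which Mir378a reads could be confused. The seed is in capitals, and the sequences are from RefSeq on GRCm38.p6, the same assembly as mm10. No sequence is printed for Mir378a itself.
mmu-miR-378b (chr11:88352839-88352858, plus strand): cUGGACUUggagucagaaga
mmu-miR-378c (chr14:46954905-46954925, minus strand): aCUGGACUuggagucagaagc
mmu-miR-378d (chr10:126710355-126710376, minus strand): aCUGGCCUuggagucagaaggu
The strands of miR-378b and miR-378c share a run of 19 nt, but they start 1 base apart and so differ in their seeds. The strand of miR-378d shares a run of 14 nt with each of them.

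Mir378a (ENSMUSG00000105200.1) spans 66 nt on the minus strand of chromosome 18, from 61397835 to 61397900 on mm10. It lies in intron 1 of all 3 annotated Ppargc1b transcripts, on the strand of the host, 2389 nt past the end of exon 1. That intron is 17766 nt long in Ppargc1b-201, 76981 nt in Ppargc1b-202 and 10203 nt in the short noncoding Ppargc1b-203. A second miRNA gene, Gm25301, is annotated over the same place on the plus strand, from 61397813 to 61397925. It contains the whole of Mir378a and extends 47 nt beyond it in all.

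Mir378a had 208475 counts on its own strand in replicate 2 and 10690 in replicate 1. Own-strand totals over all miRNA genes were 3577964 counts in replicate 2 and 2999032 in replicate 1. Scaled to CPM (counts times 1000000 over those totals), the levels were 58266 (exact 95% binomial interval 58024 to 58510) in replicate 2 and 3564 (3497 to 3633) in replicate 1. Mir378a was high in both libraries but far higher in replicate 2, where it took 5.83% of all miRNA gene counts, against 0.356% in replicate 1. The mean was 30915 ± 38680 CPM (SD, n = 2 libraries as labelled), so the spread between the libraries exceeded the mean itself. The intervals cover counting error only, and amplified reads are not independent molecules.

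The ratio of replicate 2 to replicate 1 was 16.3-fold (interval 16.0 to 16.7, total counts). Its size rests on the denominator. It was 19.4-fold without Mir206 in the totals, 28.8-fold with all reads of a library as the denominator, and 43.2-fold with TMM scaling, which sets library sizes by the trimmed mean of gene ratios. Log2 ratios with a prior of 1 CPM were taken for the 463 miRNA genes with at least 10 counts summed over the libraries. Of these, 21 exceeded that of Mir378a with TMM scaling and 23 with total counts.

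Mir378a ranked 3 of 604 detected genes in replicate 2 and 53 of 693 in replicate 1. The rank was the same at either end of the interval in each library. In replicate 2 it stood between Mirlet7i at 65503 CPM and Mir411 at 55423 CPM, and the interval of neither overlapped that of Mir378a. In replicate 1 it stood between Mir320 at 3678 CPM and Mir541 at 3496 CPM, and both intervals overlapped that of Mir378a. Its place among those neighbours in replicate 1 is therefore not resolved at this depth. CPM here counts reads per hairpin gene and is not divided by length.

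**Figure D1:**
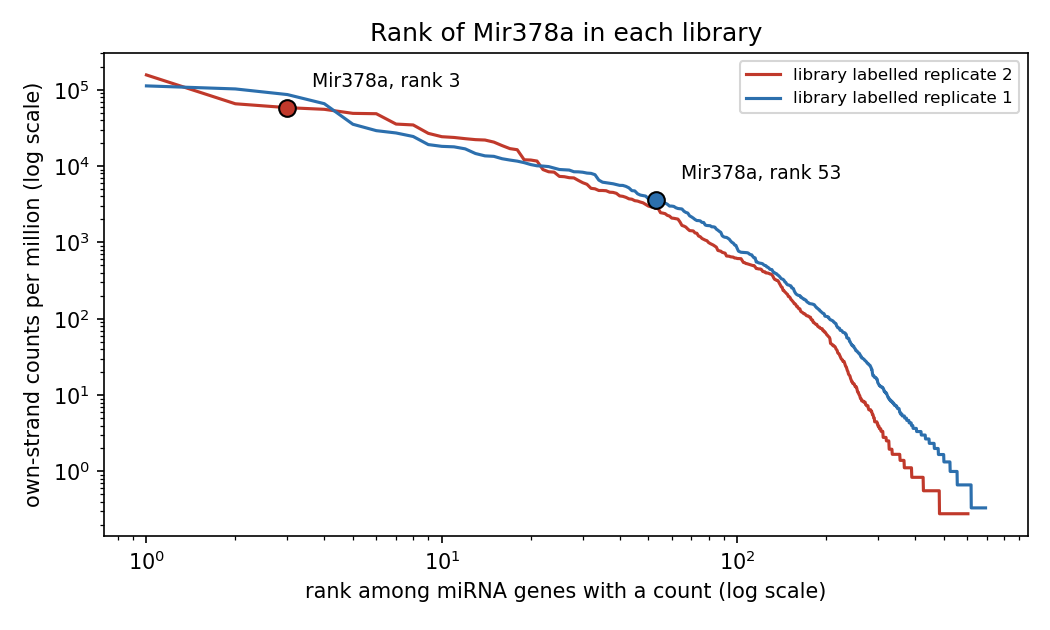
CPM of each detected miRNA gene (log scale) against its rank (log scale) in replicate 2 (red) and replicate 1 (blue), with Mir378a as a ringed point. Mir378a sits at rank 3 in replicate 2 and at rank 53 in replicate 1.

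Few reads were counted for the other Mir378 genes. The strands of miR-378b and miR-378c share runs of 19 and 20 nt with the Mir378a hairpin. A read that fits several sites counts for no gene, so the counts of these copies are uncertain. Mir378c (chromosome 14, opposite to an intron of Samd4) had 29 counts in replicate 2 and 9 in replicate 1. Mir378d (chromosome 10, in no other annotated gene) had 10 counts in replicate 2 and 9 in replicate 1. Mir378b (chromosome 11, opposite to an intron of Msi2) had 3 in replicate 2 and 1 in replicate 1. Summed, these genes gave 42 of 208517 Mir378 counts in replicate 2, or 0.0201% (exact interval 0.0145 to 0.0272). In replicate 1 they gave 19 of 10709, or 0.177% (0.107 to 0.277).

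With total counts Mir378c was 2.70-fold higher in replicate 2 (interval 1.24 to 6.49). Mir378d stood at 0.931 (0.340 to 2.59), and the interval of Mir378b, 0.202 to 132, is wide. These intervals cover counting error between a single pair of libraries, and not reads lost to shared sequence. They are not set against the ratio of Mir378a, because its level in replicate 2 chose the gene.

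Each gene was also tested across the whole table by an exact binomial test against the TMM-scaled library shares, adjusted by Benjamini-Hochberg over the 463 genes. The test sets these libraries against counting error alone and has no replicate check. At an adjusted p below 0.05 it called 79.9% of all tested genes, 40.6% higher and 39.3% lower in replicate 2. With total counts in place of TMM it called 90.1%, 26.3% higher and 63.7% lower. Mir378c passed as higher (log2 ratio 2.32, adjusted p = 2.1e-08 by this exact test), as did many other genes. Mir378d did not pass (log2 ratio 0.96, adjusted p = 0.0611 by the exact test), and its log2 ratio was -0.076 with total counts. Mir378b had too few counts to be tested, and the counts of all these copies are uncertain. Log2 ratios carry a prior of 1 CPM, which draws those of low counts towards 0.

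**Figure D2:**
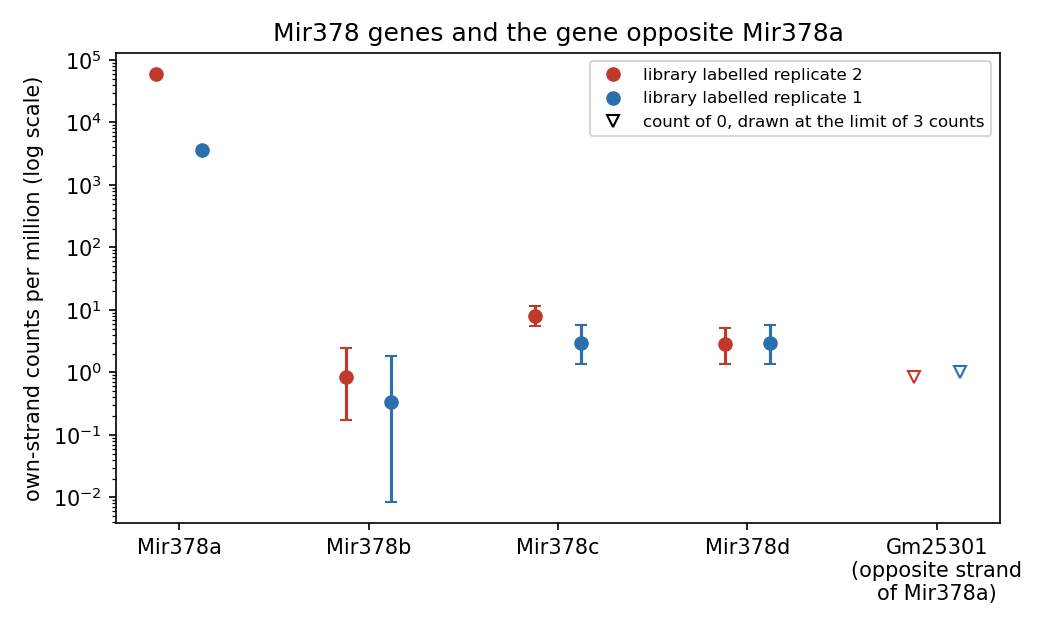
Own-strand CPM (log scale) of Mir378a, the other Mir378 genes and Gm25301 in replicate 2 (red) and replicate 1 (blue). Bars are exact 95% binomial intervals, and open triangles stand for a count of 0 at the limit of 3 counts. Mir378a lies at 58266 CPM in replicate 2 and 3564 CPM in replicate 1, and no other gene shown exceeds 8.11 CPM.

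In this table layout a read that fits several sites counts for no gene. Such reads made up 39.8% of all reads in replicate 2 and 46.1% in replicate 1. Which miRNAs they came from is not in the tables. The Mir378a hairpin was searched in the same orientation against the other miRNA hairpins and all 141767 GENCODE M21 transcripts. Of its 47 windows of 20 nt, 1 also occurred in another miRNA hairpin and 4 in any other transcript. The Mir378a hairpin shares a run of 20 nt with the mature strand of miR-378c, 19 nt with miR-378b and 15 nt with miR-378d. These runs lie in mature strands, so a share of windows is not a share of reads. With windows of 22 nt, 0 of 45 occurred in another miRNA hairpin and 1 in another transcript, a retained-intron transcript of Afg3l2. With windows of 18 nt, 3 of 49 occurred in another miRNA hairpin. Some Mir378a reads could therefore be outside its count, and how many was not tested. Sites outside annotated transcripts were not searched.

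The strand column used decides whether Mir378a is seen at all. In the column that counts reads on either strand, Mir378a had 0 counts in replicate 2 and 0 in replicate 1. The opposite-strand column also held 0 counts for it in each library. Gm25301, annotated across it, had 0 own-strand counts in either library, which allows up to 0.838 CPM in replicate 2 and 1.00 CPM in replicate 1. In the opposite-strand column Gm25301 held 208477 counts in replicate 2 and 10691 in replicate 1. These exceed the own-strand counts of Mir378a by 2 in replicate 2 and by 1 in replicate 1, and the either-strand column of Gm25301 held the same 2 and 1. All but those reads at the locus therefore overlapped the 66 nt of Mir378a, on its strand.

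**Figure D3:**
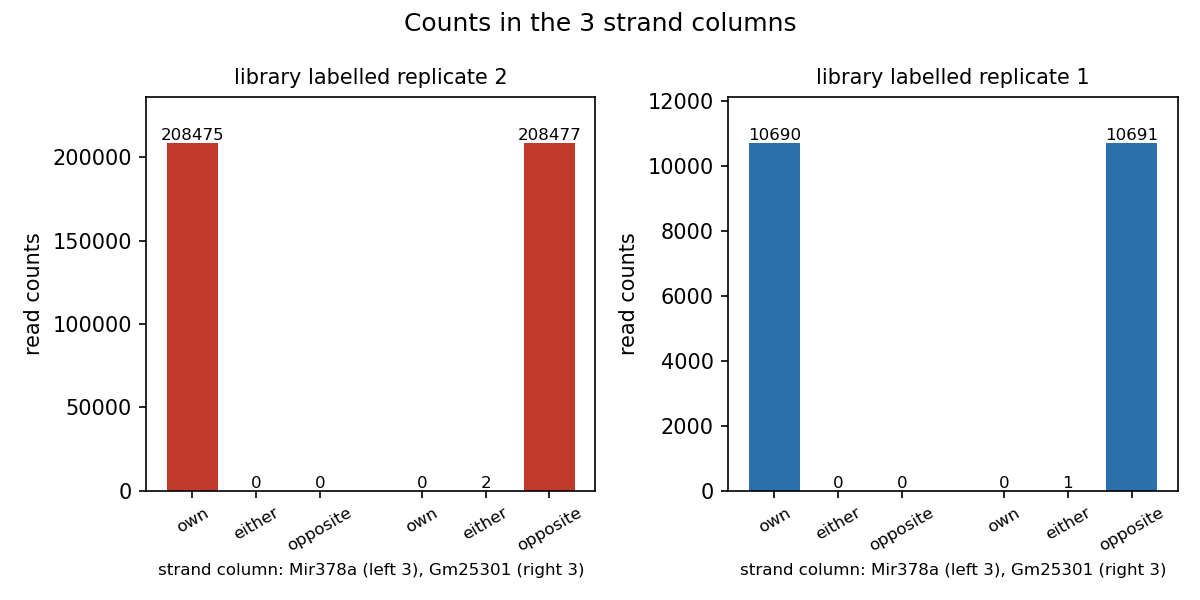
Read counts (linear axes, a separate scale per panel) in the own-strand, either-strand and opposite-strand columns for Mir378a and Gm25301, with replicate 2 on the left and replicate 1 on the right. The own-strand bar of Mir378a and the opposite-strand bar of Gm25301 are nearly equal, and the either-strand bars are at 0 to 2 counts.

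Reads over genes on both strands are counted as ambiguous when strand is ignored. There were 424395 such reads in replicate 2 and 169744 in replicate 1. The own-strand counts of Mir378a equal 49.1% of them (exact interval 49.0 to 49.3) in replicate 2 and 6.30% (6.18 to 6.41) in replicate 1. Of the genes with at least 100 own-strand counts summed, 26 kept under 0.1 of them in the either-strand column, and all 26 overlap a miRNA gene on the other strand. Mir378a was first among these 26 by own-strand counts in replicate 2, ahead of endothelial Mir126a with 81797. It was the fourth in replicate 1, where Mirlet7e led with 57372.

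Mir378a was the most abundant miRNA gene of chromosome 18 in replicate 2, and the second after Mir143 in replicate 1. That chromosome has 57 annotated miRNA genes, of which 38 had no count in either library. Mir378a gave 70.4% of the chromosome's 296240 counts in replicate 2 and 35.7% of its 29942 counts in replicate 1. Within 1 Mb of Mir378a are 7 other miRNA genes, and only Mir143 and Mir145a, smooth muscle miRNAs that lie side by side on the same strand, had more than 2 counts in a library.

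Mir143, 251296 nt from Mir378a, had 84860 counts in replicate 2 and 14193 in replicate 1, a 5.01-fold ratio with total counts. Mir145a had 1491 counts in replicate 2 and 1126 in replicate 1, a 1.11-fold ratio (log2 1.55 with TMM scaling and 0.15 with total counts), and passed the test over all genes as higher under both. The remaining 5 genes within 1 Mb (Mir5107, Mir7220, Mir6982, Mir6983 and Gm25301) had 0 to 2 counts.

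The 5 genes nearest to Mir378a in level were found by the Euclidean distance between log2(CPM + 1) values over the 2 libraries, which is a description over few points. They were Mir411, Mir322, Mir23a, Mir143 and Mir431, in that order, and the first 4 lay at distances of 0.77, 1.28, 1.31 and 1.36. Mir411 had 55423 CPM in replicate 2 and 6060 CPM in replicate 1. Mir431 had 22206 CPM in replicate 2 and 2427 CPM in replicate 1. Both belong to the imprinted Dlk1-Dio3 region of chromosome 12. Mir322, an X-linked miRNA studied in muscle differentiation, had 24265 CPM in replicate 2 and 4046 CPM in replicate 1. Mir23a, in a cluster with Mir27a and Mir24-2, had 26843 CPM in replicate 2 and 5725 CPM in replicate 1. None of these genes lay in an intron of a coding gene on its own strand, as Mir378a does.

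**Figure D4:**
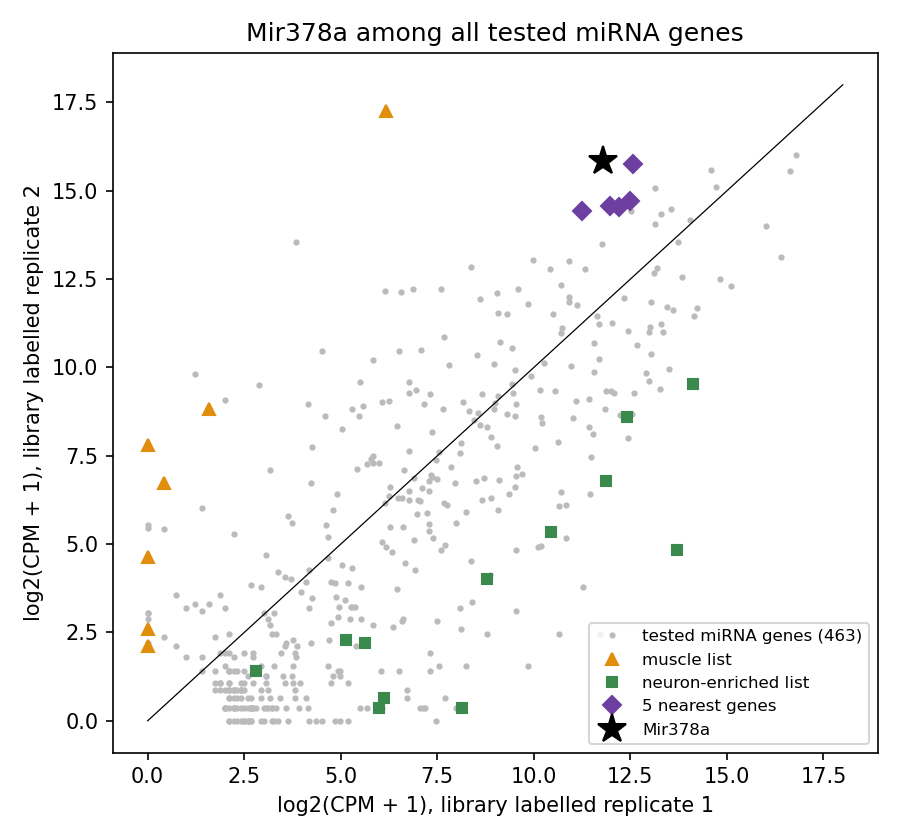
Log2(CPM + 1) of the 463 tested miRNA genes in replicate 2 (vertical axis) against replicate 1 (horizontal axis), with the line of equal level. Mir378a (star) lies above the line beside its 5 nearest genes (diamonds), all tested muscle genes (triangles) lie above the line and all tested neuron-enriched genes (squares) below it.

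Single mature strands of 3 of these neighbours are printed for reference. The counts do not separate the arms of a hairpin and no Mir378a strand is printed, so nothing about level is read from their seeds.
mmu-miR-411-5p (chr12:109710190-109710210, plus strand): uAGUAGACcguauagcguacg
mmu-miR-322-5p (chrX:53054306-53054327, minus strand): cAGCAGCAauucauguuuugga
mmu-miR-23a-3p (chr8:84208563-84208583, plus strand): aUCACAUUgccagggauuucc
No seed of these strands, in capitals, was that of miR-378b, miR-378c or miR-378d, and none was found in the Mir378a hairpin. The seed of miR-322-5p is the one it shares with the miR-15 and miR-16 strands, and 11 entries of the RefSeq table carry it.

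Among miRNA genes in introns, Mir378a led in replicate 2 and did not in replicate 1. By the annotation, 192 tested miRNA genes lie in an intron of a protein-coding gene on the same strand, a set drawn after values had been seen. Mir378a ranked 1 of the 192 in replicate 2, with 21.2% of their counts. It ranked 21 in replicate 1, with 0.920% of their counts, where Mirlet7g led with 307351. Of the 192, 31.2% were called higher and 44.8% lower in replicate 2, beside 40.6% and 39.3% of all tested genes, and their median log2 ratio was -0.55, beside -0.26 for all. With total counts 33 of the 192 were called higher and 135 lower, beside 26.3% and 63.7% of all tested genes.

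A larger log2 ratio than that of Mir378a (5.43 with TMM scaling) was seen for 5 of those intronic genes. All 5 are hosted by Hox or myosin genes. They were Mir208b in Myh7, Mir499 in Myh7b, Mir10b in introns of Hoxd3 and Hoxd4, and Mir196a-2 and Mir615 in Hoxc5. With total counts Mir152 joined them. Mir499 had 1625 counts in replicate 2 and 6 in replicate 1, and Mir615 had 1945 in replicate 2 and 9 in replicate 1. Mir378a differed from them in its level in replicate 1, where it had 10690 counts and the largest of theirs, Mir10b, had 576.

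Muscle genes were higher in replicate 2, as Mir378a was, and neuron-enriched genes were lower. The 10 annotated muscle genes took 15.7% of counts in replicate 2 and 0.00737% in replicate 1. Of 7 tested, 7 passed as higher, where 40.6% of all tested genes did so. Mir206, a skeletal muscle miRNA, had 559242 of the list's 562170 counts in replicate 2 and 212 of its 221 in replicate 1. Mir133a-2 had 0 counts in replicate 2, and 6 of the 10, Mir208b and both Mir1a genes among them, had 0 in replicate 1. Reads that fit several sites count for no gene, so the counts of the Mir1a and Mir133a copies are uncertain. Their median log2 ratio was 7.15, also with the 4 tested genes at 0 set to 3 counts, and 6.31 for total counts. With TMM scaling and the prior of 1 CPM, 4 of the 7 had a larger log2 ratio than Mir378a. The rest, Mir1a-2, Mir133a-1 and Mir208a, had 0 counts in replicate 1, so the prior limits their ratios and their place is not resolved. Mir378a had 0.371 counts per muscle list count in replicate 2 and 48.4 in replicate 1.

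The 16 neuron-enriched genes, the markers of the labelled tissue, took 0.132% of counts in replicate 2 and 4.28% in replicate 1. Of 12 tested, 11 passed as lower and 0 as higher (12 lower with total counts), and the median log2 ratio was -3.55. Of all tested genes 39.3% passed as lower, and 63.7% with total counts. Mir128-1, hosted by R3hdm1, had 2623 counts in replicate 2 and 53592 in replicate 1. The 3 Mir124a genes and Mir9-2 had 0 counts in replicate 2. In replicate 1 they had only 8 (Mir124a-1), 3 (Mir124a-2), 1 (Mir124a-3) and 7 (Mir9-2), too few to be tested. Copies of these genes share sequence, so their counts are uncertain. The part of either cell type in the Mir378a ratio was not tested, and more cells of a type cannot be told apart from more RNA per cell.

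Brown fat, where miR-378a is also known to act, gave calls in both directions. Of the 15 tested genes of the brown fat list, 9 passed as higher and 6 as lower in replicate 2 (7 as higher and 8 as lower with total counts). Their median log2 ratio was 0.75, also with the gene at 0 set to 3 counts, but -0.65 with total counts. Over all tested genes 40.6% passed as higher and 39.3% as lower (26.3% and 63.7% with total counts), with a median of -0.26 (-1.35 with total counts). Of the 6 marker genes of brown fat, 4 passed as higher, 1 passed as lower and 1 had too few counts to test, and the median log2 ratio of the 5 tested was 2.54 (1.39 with total counts). Mir455, in Col27a1, had 3933 counts in replicate 2 and 1499 in replicate 1, and Mir196a-2, also a Hox cluster gene, had 3206 in replicate 2 and 4 in replicate 1. Mir196a-1, with 13 counts in replicate 2 and 0 in replicate 1, and Mir365-2, with 12 in replicate 2 and 2 in replicate 1, passed as higher at low counts. Mir193b, a regulator of brown fat differentiation, had 44 counts in replicate 2 and 262 in replicate 1 and passed as lower. Mir365-1 had 3 counts in replicate 2 and 5 in replicate 1. Copies of Mir196a and of Mir365 share mature strands, so their counts are uncertain. Together the 6 markers took 0.202% of counts in replicate 2 and 0.0591% in replicate 1. The most abundant gene of the list, Mir203, a skin miRNA, had 12608 counts in replicate 2 and 2780 in replicate 1.

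The energy metabolism list, 19 annotated miRNA genes drawn up for links to lipid, glucose or mitochondrial regulation, took 9.70% of counts in replicate 2 and 3.05% in replicate 1. Of 18 tested, 12 passed as higher and 4 as lower (10 as higher and 7 as lower with total counts), beside 40.6% and 39.3% of all tested genes (26.3% and 63.7% with total counts). Their median log2 ratio was 2.67, and 1.28 with total counts. The most abundant were Mir335, Mir23a, Mir143 and Mir22, all higher in replicate 2 under both scalings. Mir335, hosted by Mest, had 123752 counts in replicate 2 and 26818 in replicate 1, and Mir22 had 18291 in replicate 2 and 4979 in replicate 1.

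Other members of the list lie in introns of genes with metabolic roles, and 4 of them are given here, named after their values were seen. Mir33, in an intron of the sterol regulator Srebf2, had 30 counts in replicate 2 and 121 in replicate 1, and Mir107, in the pantothenate kinase gene Pank1, had 990 in replicate 2 and 8887 in replicate 1. Both passed as lower under both scalings. Mir103-1 in Pank3 had 10 counts in replicate 2 and 17 in replicate 1 and did not pass. Mir103-2 in Pank2 had 73 in replicate 2 and 96 in replicate 1, and its direction turned with the scaling (log2 0.73 with TMM, -0.63 with total counts). The Mir103 copies share their mature strand, so their counts are uncertain. With TMM scaling and the prior of 1 CPM, no member of this list had a larger log2 ratio than Mir378a. The nearest, Mir24-2, which has an annotated copy in Mir24-1 and so uncertain counts, stood at 5.22. That order rests on the prior. Without it, by total counts, Mir24-2 (483 counts in replicate 2 and 24 in replicate 1) stood at 16.9-fold and Mir378a at 16.3-fold. This is a description, because the level of Mir378a in replicate 2 chose it.

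The fourth list held 45 genes, fixed by their known hosts as intronic, and 41 of them lie in a same-strand intron by the annotation. Of the 45 tested, 23 passed as higher and 19 as lower (13 as higher and 31 as lower with total counts). Among all tested genes 40.6% passed as higher and 39.3% as lower (26.3% and 63.7% with total counts), so nothing is read from these counts about the list. Their median log2 ratio was 0.36, also with the 2 genes at 0 set to 3 counts, but -0.87 with total counts. Its most abundant members after Mir335 were Mir744, Mir139 and Mir126a. Mir744, in Map2k4, had 18032 counts in replicate 2 and 105904 in replicate 1, and Mir139, in Pde2a, had 20657 in replicate 2 and 87343 in replicate 1. Both were lower under both scalings. Mir126a, by the annotation in an exon of Egfl7 and in an intron of Gm20532, was higher. It had 81797 counts in replicate 2 and 35984 in replicate 1.

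**Figure D5:**
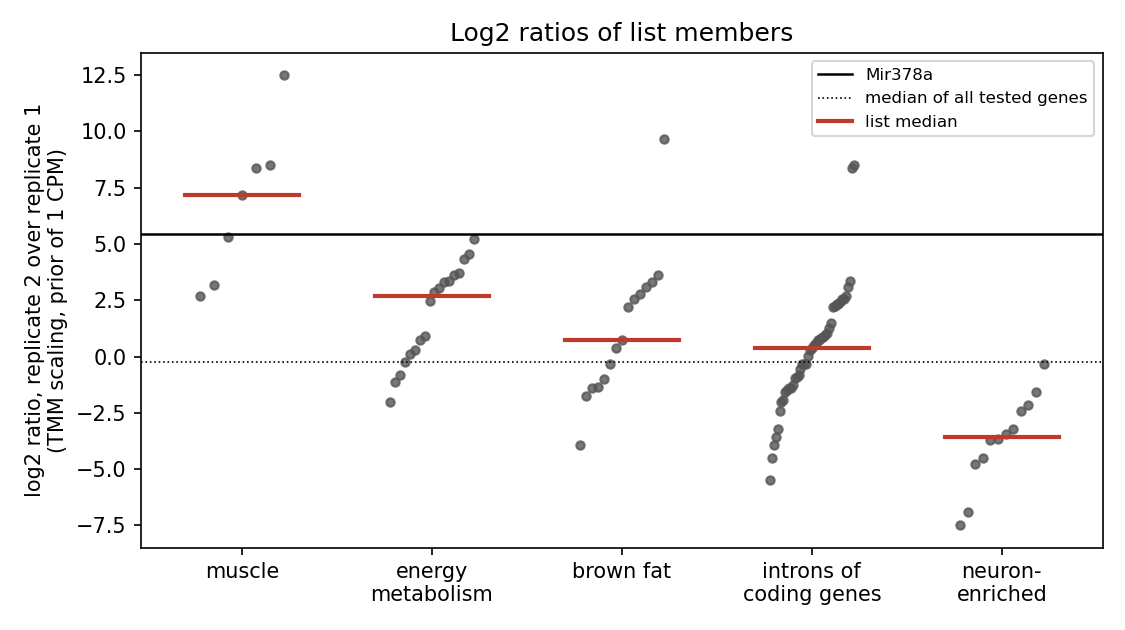
Log2 ratios of the tested members of 5 lists (points; TMM scaling, prior of 1 CPM; replicate 2 over replicate 1), with each list's median in red, Mir378a as a solid line at 5.43 and the median of all tested genes as a dotted line at -0.26. The list medians run from -3.55 (neuron-enriched) to 7.15 (muscle). The Mir378a line is for description only, because its level in replicate 2 chose the gene.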

How the data were processed

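The authors deposited raw read counts per miRNA gene, made from 1 library each and not pooled. Assembly mm10 and annotation M21 come from the deposited text files. Neither aligner nor counter is given in the sources used. The layout is that of STAR gene counts, with 4 entries for reads given to no gene and 3 count columns (either, own and opposite strand). The own-strand column was used. On it, unplaced reads, reads at several sites and reads outside miRNA genes made up 6.11%, 39.8% and 1.47% of the 6800067 reads in replicate 2, and 18.4%, 46.1% and 5.55% of the 10029659 in replicate 1. They stayed out of totals and tests.

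All 2202 identifiers matched GENCODE M21. CPM are counts times 1000000 over the own-strand total. Intervals are exact Clopper-Pearson at 95%. Genes with at least 10 counts summed were tested by an exact two-sided binomial test against TMM-scaled sizes (edgeR 4.0.16; factors 0.615 for replicate 2 and 1.63 for replicate 1), adjusted by Benjamini-Hochberg, at a threshold of 0.05. With 1 library per arm the edgeR quasi-likelihood test could not be used. A count of 0 allows 3 counts.

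Alternatives were either-strand counts, total counts, DESeq2 1.42.0 size factors, other denominators, filters of 1 and 100 counts, a prior of 0.1 CPM, edgeR's negative binomial exact test at a variation of 0.1, and other window lengths. A minimum of 4-fold was added after the data were seen. The gene and its lists were chosen with earlier results of these data known, and 17 of 91 list genes are in more than 1 list. Named genes were Mir378a, other Mir378 genes, miRNA genes within 1 Mb, neighbours in rank, the 5 nearest genes and up to 4 genes per list by mean CPM. Other genes, such as Mir33, Mir193b and Mir615, were named after their values were seen. Mir696, Mir92a-1 and Mir486a matched no annotated symbol. The markers of smooth muscle (Mir143 and Mir145a) took 2.41% of counts in replicate 2 and 0.511% in replicate 1. Those of endothelium (Mir126a and Mir126b) took 2.29% in replicate 2 and 1.20% in replicate 1, and those of red blood cells (Mir451a and Mir144) took 0.00682% in replicate 2 and 0.00167% in replicate 1. Python 3.11.15, scipy 1.17.1, pandas 2.3.3, matplotlib 3.10.9 and R 4.3.3 were used.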

Additional observations from a re-analysis of the deposited data

Results flagged for a closer look

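The opposite-strand column was no part of the main measurement. At Gm25301, the miRNA gene annotated across Mir378a, it held 208477 counts in replicate 2 and 10691 in replicate 1, where the limit for a count of 0 is 3 counts. The own-strand counts of Mir378a were 208475 in replicate 2 and 10690 in replicate 1.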

How the results depend on the processing

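Mir378a was higher in replicate 2 under every denominator tried, and the ratio of 16.3-fold became 19.4-fold without Mir206 in the totals, 28.8-fold with all reads, 39.0-fold with DESeq2 size factors and 43.2-fold with TMM scaling. The mean level of 30915 CPM ranged from 15862 with all reads to 48481 with TMM scaling. It was 0 with either-strand counts, which gave no ratio. With 1 library left out, the level ranged from 3564 to 58266 CPM, with no test. The log2 ratio of Mir378d turned to -0.076 with total counts (adjusted p = 1.00 by the exact test), and passed with either-strand counts (1.10, adjusted p = 0.0495 by the exact test), and the cause was not tested. Mir378c kept its direction and call under the 5 alternatives that could test it, and a filter of 100 counts left neither gene.

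Of 370 genes called, 200 differed at least 4-fold. With total counts 417 were called, 122 higher (29.3%) and 295 lower, against 188 higher and 182 lower with TMM scaling, and the median over the 463 tested genes was -1.35 against -0.26. With at least 100 counts, 4 muscle genes in place of 7 were left to call. Hairpin windows shared with other miRNA hairpins numbered 1 at 20 nt, 3 at 18 nt and 0 at 22 nt. The 5 nearest genes were the same 5 with log2(CPM + 0.1). No paired analysis was possible because there is 1 group.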

Other observations

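The remaining tested genes of chromosome 18 did not share a direction. Mir122, a liver miRNA, had 1163 counts in replicate 2 and 259 in replicate 1. Mir187 had 107 counts in replicate 2 and 3503 in replicate 1, and Gm49347 had 12 in replicate 2 and 123 in replicate 1. The muscle genes Mir1a-2, with 85 counts, and Mir133a-1, with 18, were seen in replicate 2 and had 0 in replicate 1. Both have a copy on another chromosome, so these counts are uncertain. Mir1a-2, like Mir378a, overlaps a miRNA gene on the opposite strand (Mir1b) and had 0 counts in the either-strand column of each library.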
